A study of Rattus norvegicus with 7 samples.

Results

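Markers of gland progenitor cells and components of the hedgehog pathway were examined in the rat meibomian gland after ultraviolet B (UVB) irradiation of the eyelid. The 10 genes were chosen by name, with earlier results of these data known. Lrig1, Lgr5, Lgr6, Sox9 and Prdm1 were taken as markers of epithelial progenitors, and Gli1, Gli2, Ptch1, Smo and Hhip as hedgehog components. Prdm1 is also found in differentiating cells. All 10 were present among the 17246 genes read from the tables, and all 10 passed the filter on low counts. The meibomian gland is the lipid-secreting gland of the eyelid. Glands came from wild-type female Sprague-Dawley rats aged 3 months, with 4 control libraries, given no treatment per the labels, and 3 UVB libraries. In the UVB group the shaved upper eyelids received 300 mJ/cm2 in 5 min per day on 5 days before dissection and freezing. The labels do not say whether controls were shaved, how long after the last exposure the lids were taken, or that each library came from a separate animal, so p-values measure the spread between libraries.

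Meibocytes, the lipid-filled cells of the gland, are lost whole during secretion and are replaced by division of basal progenitors at the rim of each acinus and in the duct. In skin and its glands, progenitors are recognised by receptors such as LRIG1, which dampens signalling of the epidermal growth factor receptor family, and LGR5 and LGR6, which bind R-spondins and raise WNT signalling. In the hedgehog pathway a secreted ligand (sonic, Indian or desert hedgehog) binds the receptor PTCH1, which otherwise holds the transducer SMO inactive. Released SMO lets the transcription factor GLI2 act as an activator, and GLI1, PTCH1 and the ligand-binding decoy HHIP are themselves products of that response, so their transcripts are commonly read as its output.

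Libraries held between 20680237 and 28784941 counts. Defining genes of meibocytes were abundant in every library: 10 of them summed to between 40550 and 53190 TPM (the authors' length-corrected unit of transcript level). Transcripts of hair follicles, dermis, nerve, vessel and muscle were also present, so the dissected tissue was mixed, and in such bulk RNA fewer cells of a type and less RNA per cell cannot be told apart. Differences below are log2 fold changes of UVB against control from edgeR's quasi-likelihood test on rounded counts, with p-values adjusted over the 13709 genes tested (Benjamini-Hochberg) and a threshold of 0.05. Levels are in TPM, as mean ± SD.

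Of the 10 genes, 3 fell after UVB: the progenitor marker Lrig1, the differentiation factor gene Prdm1 and the hedgehog receptor gene Ptch1 (3 of 10 called lower, where 6.74% of all tested genes were called lower and 13.0% in either direction). Their levels were 25.4% to 28.5% below those of controls. No member was called higher by edgeR, DESeq2 or limma-voom, although 1 gene, Lgr6, had an unadjusted p under 0.05 in that direction (14.0% of all tested genes). Lower values with an unadjusted p under 0.05 were found for 7 members, and for 15.5% of all tested genes. The median log2 fold change of the 10 was -0.41, against -0.0058 over all genes tested, and 8 of the 10 lay below 0. In 6 of the 10 every UVB library was below every control, an arrangement found in 13.8% of all tested genes (26.6% had groups apart in either direction).

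**Figure D1:**
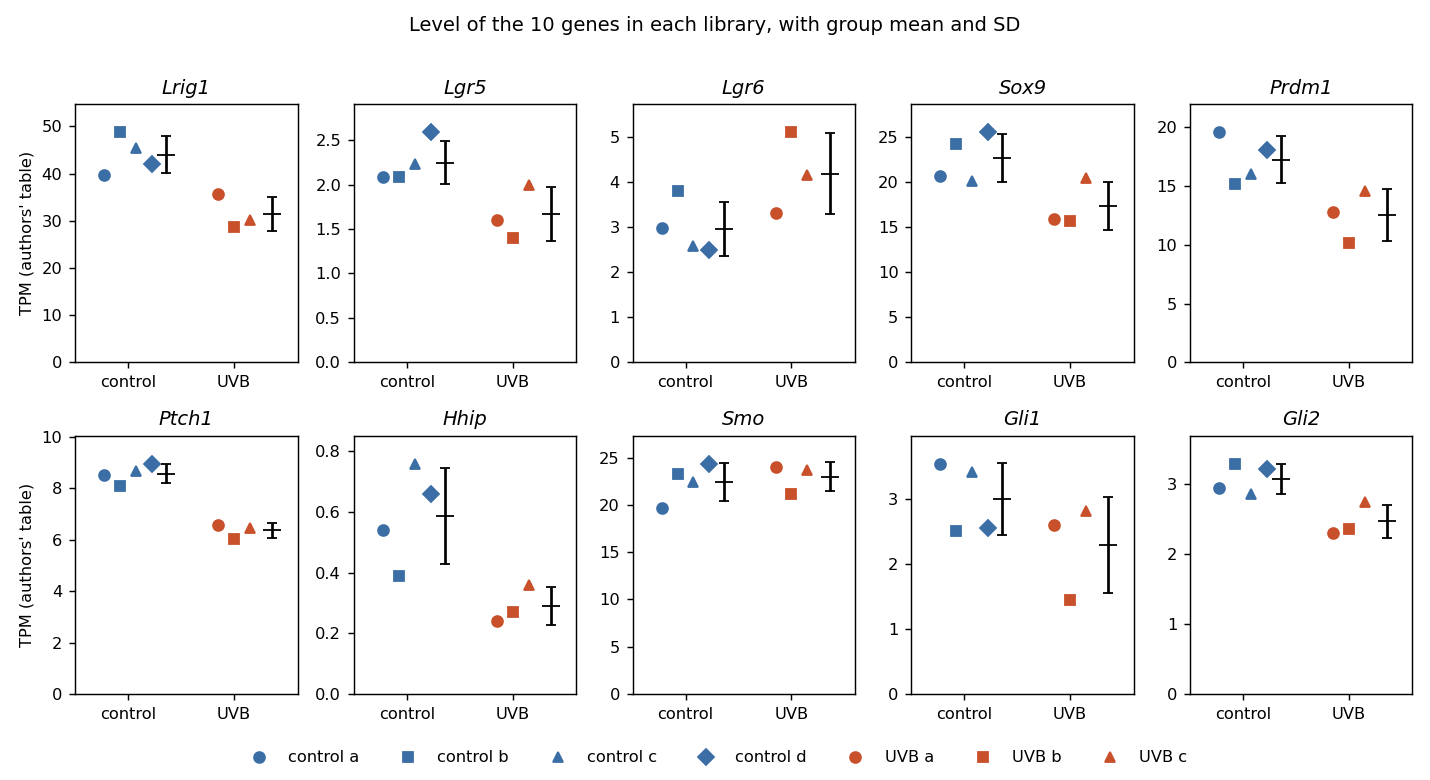
TPM of each of the 10 genes (one panel per gene, axis from 0) in 4 control libraries (blue) and 3 UVB libraries (orange); symbols mark libraries, and the black bar with whiskers is the group mean and SD. The groups stand apart for Lrig1, Prdm1, Ptch1, Lgr5, Gli2 and Hhip, overlap for Sox9, Lgr6, Gli1 and Smo, and Lrig1 has the highest level.

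Lrig1 (NCBI gene 312574), which encodes a membrane protein of slow-cycling epithelial progenitors, had the highest level of the 10. It measured 39.7, 48.8, 45.4 and 42.0 TPM in controls a to d and 35.6, 28.8 and 30.1 TPM in UVB a to c. Every UVB library was below every control, and UVB b and c were the lowest. The means were 44.0 ± 3.96 TPM (SD, n = 4) and 31.5 ± 3.63 TPM (SD, n = 3). The log2 fold change was -0.48 (edgeR: SE 0.089, 95% interval -0.68 to -0.28, adjusted p = 0.0107), and the call was made in all 17 alternative fits, including each that left out 1 library (adjusted p from 7.76e-05 to 0.0371). Lrig1 overlaps Slc25a26 in the RefSeq annotation of assembly GRCr8, and whether counting used strand is not given in the sources used here.

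Lrig1 was not alone in its family. Lrig3, a related membrane protein gene, also fell, from 15.9 ± 1.14 TPM (SD, n = 4) to 12.9 ± 0.125 TPM (SD, n = 3), a difference of -0.31 on the log2 scale (edgeR: SE 0.072, adjusted p = 0.0254). Its call was lost in each of the 6 fits that left out control b, c or d or a UVB library, at adjusted p-values up to 0.0658. The third gene of the family, Lrig2, had a log2 fold change of 0.073 (95% interval -0.14 to 0.29).

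Prdm1 (NCBI gene 309871) encodes BLIMP1, a transcriptional repressor found in sebaceous gland cells, in differentiating keratinocytes and in plasma cells. Controls measured 19.6, 15.1, 16.0 and 18.1 TPM and UVB libraries 12.8, 10.1 and 14.5 TPM. The groups did not overlap, but UVB c lay close to control b. Means of 17.2 ± 1.99 TPM (SD, n = 4) and 12.5 ± 2.22 TPM (SD, n = 3) gave a log2 fold change of -0.47 (SE 0.13, 95% interval -0.77 to -0.17). The adjusted p of 0.0480 was just inside the threshold. It was not called when any control, UVB a or UVB b was left out (edgeR adjusted p from 0.0536 to 0.124), with library size alone, with quality weights or in the TPM fits (0.0585 to 0.0837), while leaving out UVB c gave -0.60 and an adjusted p of 0.0312. Markers of B and plasma cells were scarce, with 6 of the 8 under 1 TPM in every library. The list summed to 1.84 to 3.65 TPM in controls and 2.32 to 3.56 TPM after UVB. The part of plasma cells in the Prdm1 value was not tested.

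Sox9 (NCBI gene 140586), a transcription factor gene of hair follicle and gland progenitors, measured 20.7, 24.2, 20.1 and 25.5 TPM in controls and 15.9, 15.7 and 20.5 TPM after UVB. UVB a and b were below every control, and UVB c was within the control range. Its log2 fold change of -0.39 (SE 0.12, 95% interval -0.67 to -0.11) missed the threshold (edgeR adjusted p = 0.0707). It was called by DESeq2 (adjusted p = 0.0335) and without UVB c (-0.53, edgeR adjusted p = 0.0309).

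Lgr5 and Lgr6, which encode R-spondin receptors, had estimates of opposite sign. Lgr5 (NCBI gene 299802), a marker of cycling stem cells of the lower hair follicle, measured 2.08, 2.09, 2.23 and 2.59 TPM in controls and 1.6, 1.4 and 2.00 TPM after UVB. Its groups did not overlap, but the log2 fold change of -0.44 (SE 0.17, 95% interval -0.83 to -0.049) did not pass (edgeR adjusted p = 0.128). Lgr6 (NCBI gene 498233), a marker of progenitors above the follicle bulge and in the epidermis, measured 2.98, 3.79, 2.58 and 2.48 TPM in controls and 3.30, 5.10 and 4.14 TPM after UVB. UVB b and c were above every control, while UVB a was below control b. For Lgr6 the log2 fold change was 0.50 (edgeR: SE 0.19, 95% interval 0.068 to 0.93, adjusted p = 0.119). Within a library the ratio of Lgr6 to Lgr5 in TPM ran from 0.958 to 1.81 in controls and from 2.06 to 3.64 after UVB, so the ratio was higher in each UVB library than in any control; it was picked after the values were seen and not tested.

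**Figure D2:**
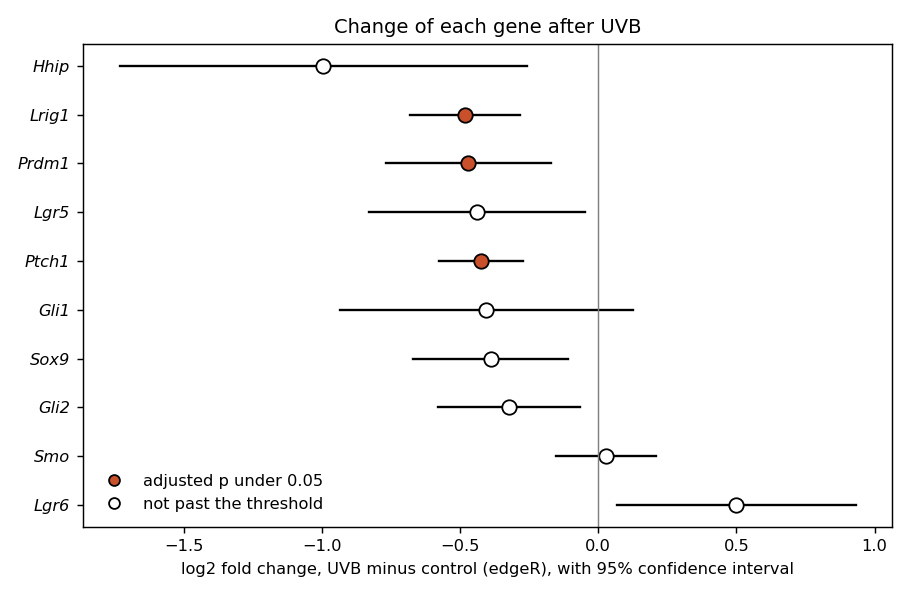
Log2 fold change of each of the 10 genes, UVB minus control, with its 95% confidence interval from edgeR (not adjusted for the number of genes); filled points passed the adjusted threshold of 0.05. Ptch1, Lrig1 and Prdm1 are filled, Ptch1 has the narrowest interval, and Smo is centred near 0.

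On the receptor side of the hedgehog pathway, Ptch1 fell with the smallest spread of any member. Ptch1 (NCBI gene 89830) measured 8.54, 8.09, 8.69 and 8.97 TPM in controls and 6.59, 6.05 and 6.47 TPM after UVB. All 3 UVB libraries were well below the lowest control, and the libraries of each group lay close together: 8.57 ± 0.368 TPM (SD, n = 4) against 6.37 ± 0.284 TPM (SD, n = 3). The log2 fold change was -0.42 (edgeR: SE 0.067, 95% interval -0.57 to -0.27, adjusted p = 0.00657). This call was made in all 17 alternative fits, with log2 fold changes between -0.45 and -0.38 and adjusted p-values up to 0.0286.

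The Ptch1 promoter is shown because PTCH1 is a standard transcriptional output of GLI factors. A core of the GLI recognition sequence, ACCACCC, was searched on both strands (GGGTGGT when read on the opposite strand) in the RefSeq promoter windows of GRCr8, which span 250 bases before to 50 after a gene's start. Of the 10 genes, 7 had a window, and Ptch1 and Gli2 held 1 match each; 4.44% of all 33469 windows held 1 or more. Both matches read GGGTGGT along the gene's strand, 171 bases before the Ptch1 start and 207 bases before the Gli2 start. No match was found in the windows of Lrig1, Lgr6, Prdm1, Smo and Hhip, and Lgr5, Sox9 and Gli1 had none to search. The 100 bases around each match follow 5′ to 3′ along the gene's strand, with the match in capitals, at chr17:1555354-1555453 (plus strand) for Ptch1 and chr13:32716569-32716668 (minus strand) for Gli2.
Ptch1: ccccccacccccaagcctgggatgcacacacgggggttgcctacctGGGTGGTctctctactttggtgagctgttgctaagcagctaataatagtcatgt
Gli2: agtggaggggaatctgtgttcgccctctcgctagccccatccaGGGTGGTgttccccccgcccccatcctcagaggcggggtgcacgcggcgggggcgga
A match is a description of the letters and was not tested as a binding site. Of the 3 genes that fell, Ptch1 held a match, and Lrig1 and Prdm1 did not.

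Hhip (NCBI gene 291936), which encodes the decoy that binds hedgehog ligands at the cell surface, was the scarcest member. It measured 0.54, 0.39, 0.76 and 0.66 TPM in controls and 0.24, 0.27 and 0.36 TPM after UVB, from 15 to 39 counts per control and 9 to 17 per UVB library. Every UVB library was below every control, and the mean after UVB was 0.290 ± 0.0624 TPM (SD, n = 3) against 0.588 ± 0.160 TPM (SD, n = 4). Its log2 fold change of -0.99 (SE 0.33, 95% interval -1.73 to -0.26), about 0.502 of the control level, did not pass (edgeR adjusted p = 0.0769). Hhip was called in none of its 14 alternative fits (adjusted p from 0.0607 to 0.184).

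Smo (NCBI gene 25273), which encodes the transducer held in check by PTCH1, stayed near its control level. It measured 19.7, 23.3, 22.4 and 24.4 TPM in controls and 24.0, 21.2 and 23.7 TPM after UVB. The UVB values lay inside the control range. Its log2 fold change was 0.028 (edgeR: SE 0.081, adjusted p = 0.850), and the 95% interval of -0.15 to 0.21 bounds a difference at between 0.899 and 1.16 times the control level. The sign turned to -0.023 without control a. The ratio of Ptch1 to Smo within a library was 0.348 to 0.434 in controls and 0.273 to 0.285 after UVB, in TPM, also chosen after the values were seen.

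The GLI factors were both low and neither passed. Gli1 (NCBI gene 140589), the factor whose own transcript is the usual readout of the pathway, measured 3.54, 2.5, 3.41 and 2.55 TPM in controls and 2.60, 1.44 and 2.81 TPM after UVB. UVB b was the lowest library, at 48.5% of the control mean in library-scaled counts (CPM), while UVB a and c lay inside the control range. The log2 fold change was -0.40 (edgeR: SE 0.24, 95% interval -0.94 to 0.13, adjusted p = 0.286), and -0.16 without UVB b. Counts of Gli1 were not whole in any library and the gene overlaps Arhgap9 in GRCr8, so its level is given as uncertain.

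Gli2 (NCBI gene 304729), the main activator of the pathway, was steadier. Controls measured 2.94, 3.29, 2.85 and 3.21 TPM and UVB libraries 2.30, 2.35 and 2.74 TPM, without overlap. UVB c lay just under the lowest control. Its log2 fold change of -0.32 (SE 0.11, 95% interval -0.58 to -0.067) gave an edgeR adjusted p of 0.0946, and it was not called in any of the 17 alternative fits. Gli3, the related factor that acts mostly as a repressor, had a log2 fold change of -0.092 (95% interval -0.56 to 0.38).

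**Figure D3:**
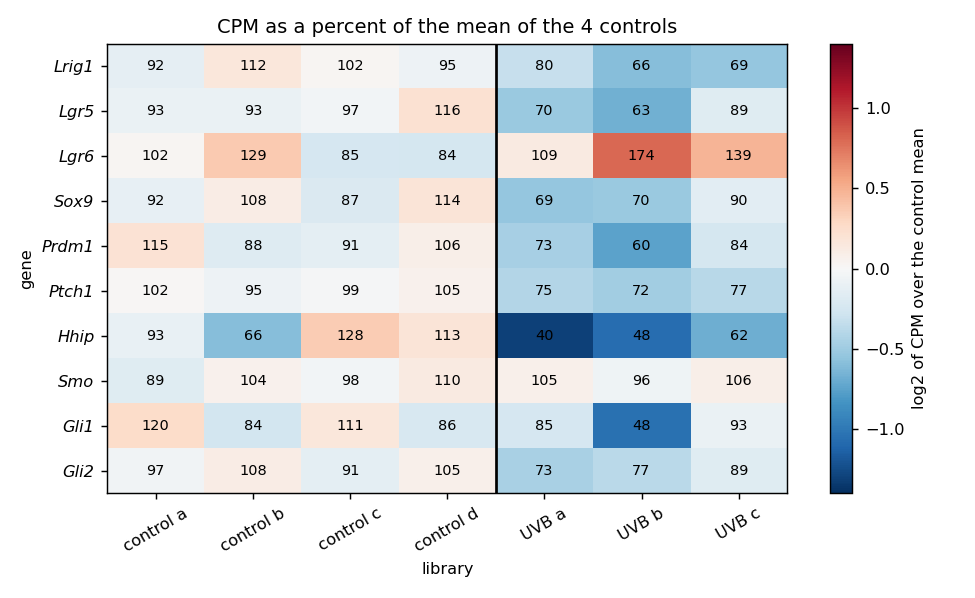
CPM of each of the 10 genes (rows) in each library (columns) as a percent of the mean of the 4 controls; the colour is the log2 of that ratio and the vertical line separates controls from UVB libraries. Ptch1 lies between 72% and 77% in the 3 UVB libraries, Lgr6 between 109% and 174%, and UVB c is the highest of the 3 for 8 of the 10 genes.

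Among the remaining hedgehog genes, listed by role, 4 of 25 tested were called lower (edgeR; 6.74% of all genes) and none higher by edgeR, DESeq2 or limma-voom, with 2 higher and 9 lower at an unadjusted p under 0.05 (14.0% and 15.5% of all genes). Their median log2 fold change was -0.27, against -0.0058 over all genes. Without control d, UVB a or UVB b none of them was called by edgeR, and without control c only Mgrn1. Gas1 and Csnk1a1 of this list were not analysed here, and Ihh, with at most 4 counts in a library, was below the filter.

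The ligand gene Shh had the largest difference in the pathway. It was scarce: 14, 10, 28 and 25 counts in controls a to d and 0, 5 and 6 counts in UVB a to c, or 0.805 ± 0.289 TPM (SD, n = 4) and 0.143 ± 0.127 TPM (SD, n = 3). Every UVB library was below every control, and UVB a had no count. The log2 fold change was -2.38 (edgeR: SE 0.61, 95% interval -3.75 to -1.01, adjusted p = 0.0332). The call was lost when control c, control d or any 1 UVB library was left out (adjusted p from 0.0543 to 0.0828). Dhh, the ligand gene expressed by Schwann cells of peripheral nerve, had 14 to 24 counts in controls and 30 to 38 after UVB. Its groups were apart in the other direction, with a log2 fold change of 0.80 (SE 0.27, 95% interval 0.18 to 1.41) that did not pass (edgeR adjusted p = 0.0859). Markers of Schwann cells lay lower beside it: 3 of 8 were called lower (6.74% of all genes), Egr2 and S100b among them. The summed level of the list was 139 to 162 TPM after UVB against 205 to 231 TPM in controls. The part of Schwann cells in the Dhh value was not tested.

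Genes for release of the ligand did not pass: Disp1, which encodes the exporter, had a log2 fold change of -0.32 (edgeR adjusted p = 0.131), Scube3 -0.53 (0.177) and Scube1 -0.34 (0.514). The receptor and co-receptor genes all had negative values, and none of the 4 tested was called by edgeR, DESeq2 or limma-voom. Of them 3 had an unadjusted p under 0.05, where 15.5% of all tested genes were lower by that measure. Lrp2, which encodes an endocytic receptor, was under 1 TPM in every library. It had 51 to 149 counts in controls and 36 to 55 after UVB, and every UVB library was below every control in TPM. Its log2 fold change of -0.83 (95% interval -1.49 to -0.17) did not pass (edgeR adjusted p = 0.0955). Of the others, the co-receptor gene Boc had a log2 fold change of -0.27 (95% interval -0.48 to -0.068, edgeR adjusted p = 0.080) and the co-receptor gene Cdon -0.35 (0.164).

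Downstream of the receptors, 3 of 14 transducers and regulators fell, Mgrn1 and Spop among them, where 6.74% of all tested genes were called lower. Mgrn1, which encodes a ubiquitin ligase that acts in the removal of SMO from the cilium, went from 23.4 ± 1.6 TPM (SD, n = 4) to 17.8 ± 1.88 TPM (SD, n = 3), a difference of -0.39 on the log2 scale (edgeR: SE 0.089, adjusted p = 0.0223). Spop, which encodes an adaptor for degradation of GLI proteins, fell by 0.29 on the log2 scale (edgeR: SE 0.066, adjusted p = 0.0229) from 58.1 ± 3.00 to 48.2 ± 1.15 TPM. In both genes every UVB library was below every control, yet the calls were fragile: Mgrn1 lost its call without control d, UVB a or UVB b (adjusted p up to 0.0720), and Spop without control b, c or d or UVB a or b (up to 0.0761). Counts of Mgrn1 were not whole in any library. The most abundant regulators that did not pass were Prkaca, a protein kinase A subunit gene (0.14, 95% interval 0.0064 to 0.27), the receptor kinase gene Grk2 (-0.11, -0.24 to 0.014) and the kinase gene Gsk3b (0.037, -0.10 to 0.18).

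Further genes known to respond to hedgehog in other tissues did not follow one direction. Of 4 tested, Ccnd1, which encodes cyclin D1 of the cell cycle, rose from 64.0 ± 5.09 TPM (SD, n = 4) to 81.8 ± 10.6 TPM (SD, n = 3), a difference of 0.37 on the log2 scale (edgeR: SE 0.093, adjusted p = 0.0318, against 6.30% of all genes called higher). The call was lost without control b, c or d, UVB a or UVB c (adjusted p up to 0.0935) and in the TPM fits (up to 0.0772). Mycn, a growth-promoting transcription factor gene, measured 3.54, 2.03, 3.22 and 4.49 TPM in controls and 1.91, 1.62 and 2.09 TPM after UVB, with a log2 fold change of -0.86 (edgeR: SE 0.26, 95% interval -1.44 to -0.28, adjusted p = 0.0562). Mycn was called, lower, by DESeq2 and by edgeR without control b. Bmp4 (-0.30, edgeR adjusted p = 0.152) and Nr2f2 (0.058, adjusted p = 0.665) did not pass. Beside Ccnd1, 6 of 10 genes of cycling cells rose (Ccnb1, Ccna2, Cdk1, Plk1, Cenpe and Rrm2), again against 6.30% of all genes. The list median was 0.73, and the summed level was 208 to 246 TPM in controls and 293 to 383 TPM after UVB. The part of cycling cells in the Ccnd1 value was not tested.

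**Figure D4:**
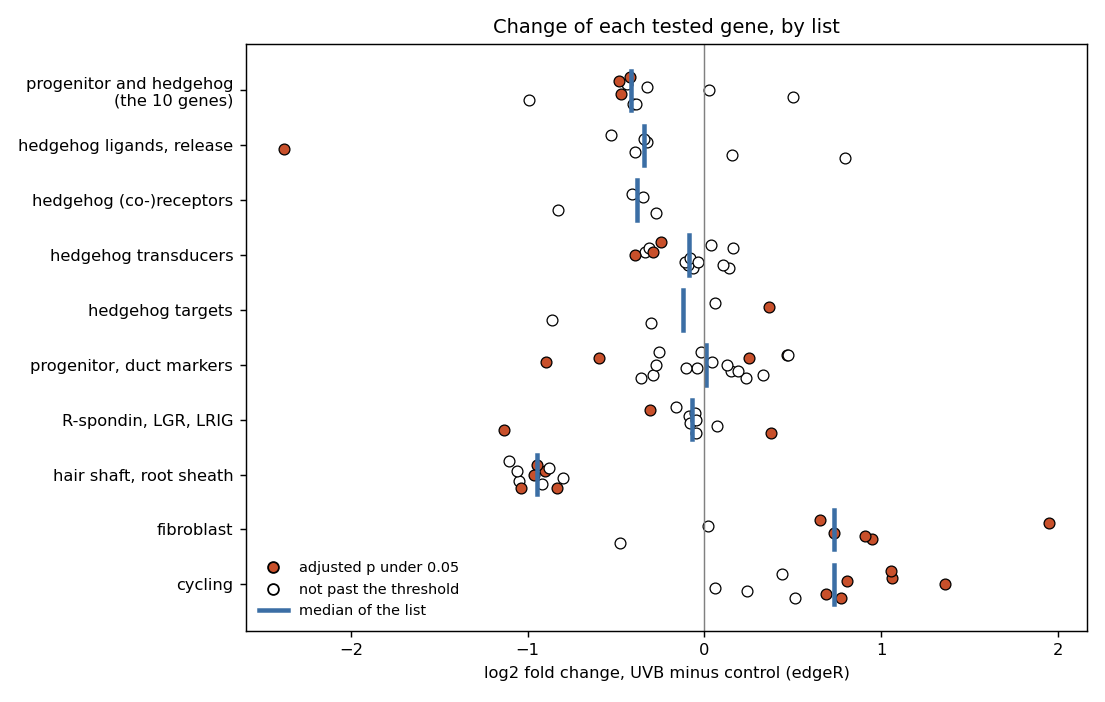
Log2 fold change, UVB minus control, of each tested gene (points) in the 10 lists named on the vertical axis; filled points passed the adjusted threshold of 0.05 and the blue bar is the list median. The medians are -0.41 for the 10 genes, -0.95 for hair shaft and root sheath genes and 0.73 for both fibroblast and cycling genes; Shh is the filled point at -2.38.

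Of 18 other markers of progenitors and ducts tested, 2 fell and 2 rose, beside 6.74% lower and 6.30% higher over all genes, with a median log2 fold change of 0.012. Fits without 1 library called between 1 (without control c or d) and 5 of them. Gata6, a transcription factor gene of the upper follicle and sebaceous duct, fell from 15.0 ± 3.78 TPM (SD, n = 4) to 8.09 ± 0.831 TPM (SD, n = 3), a difference of -0.90 on the log2 scale (edgeR: SE 0.19, adjusted p = 0.0215). Plet1, a surface protein gene of the follicle junctional zone, fell from 205 ± 34.2 to 136 ± 20.5 TPM (-0.60, SE 0.14, adjusted p = 0.0273). Each of the 3 UVB libraries was below every control for both genes. Gata6 lost its call without control c or d, UVB a or UVB b (adjusted p up to 0.0765), and Plet1 without control c or d, UVB b or UVB c (up to 0.0943).

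The genes that rose were basal. Krt14, the keratin gene of basal epithelial cells, went from 5279 ± 529 TPM (SD, n = 4) to 7338 ± 410 TPM (SD, n = 3), a difference of 0.47 on the log2 scale (edgeR: SE 0.099, adjusted p = 0.0173), and its counts were not whole in any library. It was not called without control c (edgeR adjusted p = 0.0628) or UVB c (0.0569). Itga6, which anchors basal cells to the basement membrane, rose by a log2 fold change of 0.25 (SE 0.070, adjusted p = 0.0453), and lost the call in every fit without 1 library except that without UVB b (up to 0.136). The keratin gene Krt5, also of basal cells, had a log2 fold change of -0.021 (95% interval -0.27 to 0.23). The duct keratin gene Krt79 had 0.13 (-0.043 to 0.30) and Krt17 -0.043 (-0.38 to 0.29), and none of these 3 passed. Krt15, Krt19, Foxc1 and Trp63 were not analysed here.

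Around the LGR receptors, 3 of 10 tested genes of R-spondin and WNT signalling and the LRIG family were called, 2 lower and 1 higher, beside 13.0% of all genes called in either direction. Lef1, a transcription factor gene of the WNT pathway and of the hair matrix, fell from 3.34 ± 0.538 TPM (SD, n = 4) to 1.47 ± 0.269 TPM (SD, n = 3), a difference of -1.13 on the log2 scale (edgeR: SE 0.20, adjusted p = 0.00933), and was called in all 17 alternative fits. Axin2, a feedback inhibitor gene commonly used as a readout of WNT signalling, rose from 8.29 ± 0.624 to 10.8 ± 0.646 TPM (0.38, SE 0.090, adjusted p = 0.0270); it lost the call without control c or d, UVB a or UVB c (up to 0.0822). The third was Lrig3, given above. The most abundant genes that did not pass were Ctnnb1 (-0.088, 95% interval -0.24 to 0.065), Wnt4 (-0.047, -0.23 to 0.13) and Lgr4 (-0.055, -0.20 to 0.094), the LGR receptor gene with the broadest expression. Ligand genes Rspo2, Rspo3 and Rspo4 were below the filter, and Znrf3 was not analysed here.

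Among themselves the 10 genes kept a similar order of level in both groups. In controls Lrig1 was highest at 44.0 TPM, and its range did not overlap with that of Sox9 (22.6 TPM), the next. Sox9 and Smo (22.4 TPM) overlapped, Prdm1 (17.2 TPM) and Ptch1 (8.57 TPM) each stood apart from their neighbours, and Gli2 (3.07), Gli1 (3.00), Lgr6 (2.96) and Lgr5 (2.25 TPM) each overlapped with the next of these 4. Hhip was lowest at 0.588 TPM, apart from the rest. After UVB the order was Lrig1 (31.5), Smo (23.0), Sox9 (17.3), Prdm1 (12.5), Ptch1 (6.37), Lgr6 (4.18), Gli2 (2.46), Gli1 (2.28), Lgr5 (1.67) and Hhip (0.290 TPM), with Smo above Sox9 and Lgr6 above both GLI genes in every UVB library; neighbours overlapped only from Gli2 to Gli1 and from Gli1 to Lgr5.

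UVB libraries differed from each other. UVB b had the lowest CPM of all 7 libraries for 5 of the 10 genes (Lrig1, Lgr5, Prdm1, Gli1 and Ptch1) and the highest for Lgr6. UVB a was the lowest for Sox9, Gli2 and Hhip. UVB c was the highest of the 3 UVB libraries for 8 of the 10 genes, by little for Ptch1 and Smo. In UVB a to c, Ptch1 was at 75.5%, 71.6% and 76.6% of the control mean and Smo at 104.8%, 95.7% and 105.5%. Of the UVB libraries, Lrig1 was highest in UVB a, at 79.9%, with UVB b at 66.2% and UVB c at 68.5%. These patterns were not counted over all genes. Hair follicle transcripts also differed between the UVB libraries, in a pattern that not every member shared. The 11 genes of hair shaft and inner root sheath summed to 918 to 1263 TPM in controls. They summed to 416 TPM in UVB a, 362 TPM in UVB b and 952 TPM in UVB c, the last inside the control range. In that list 5 of 11 genes were called lower (Krt35, Krt85, Hoxc13, Msx2 and Dlx3), against 6.74% of all genes. The median log2 fold change was -0.95, and no gene was at 0. The part of hair follicles in the values of Lgr5, Sox9, Shh, Lef1 and Prdm1 was not tested. In UVB c, Msx2, Dlx3, Hoxc13, Krt35 and Tchh were still below every control in CPM, while the other hair genes listed were not. Of the members, that library had Hhip at 62.05%, Lrig1 at 68.5%, Ptch1 at 76.6% and Prdm1 at 84.3% of the control mean. Lgr5, Gli2, Sox9 and Gli1 were at 88.6%, 89.0%, 90.0% and 93.5%, Smo at 105.5% and Lgr6 at 139.4%. These are values of 1 library with no test.

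**Figure D5:**
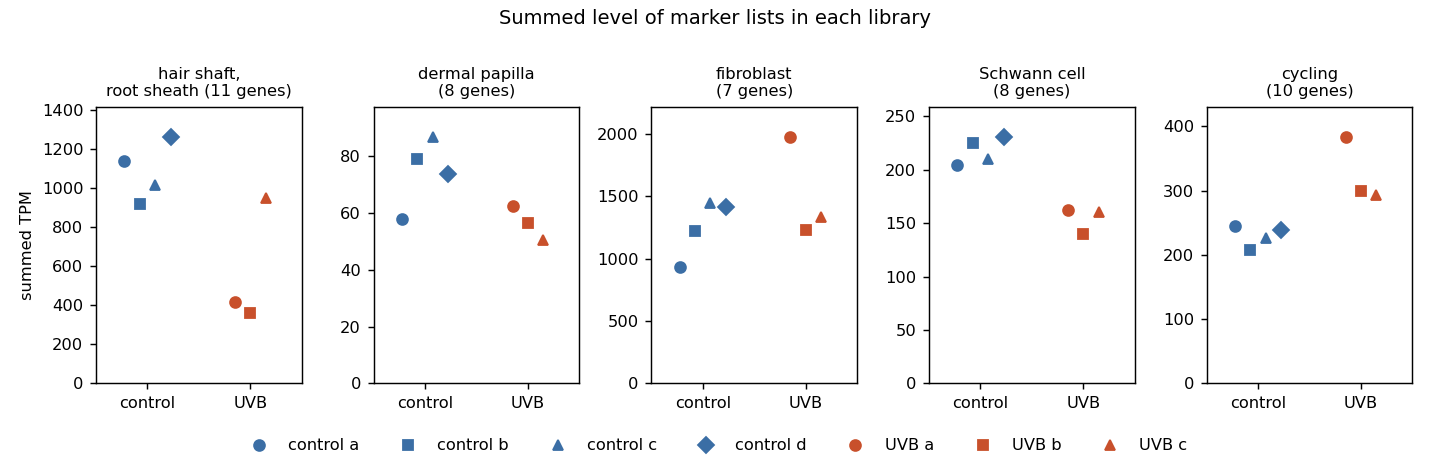
Summed TPM of the genes in 5 marker lists (one panel each, axis from 0) in 4 control (blue) and 3 UVB libraries (orange), with the symbols of the legend marking libraries. Hair genes are at 362 and 416 TPM in UVB b and UVB a but at 952 TPM in UVB c, while Schwann cell genes are below and cycling genes above every control in all 3 UVB libraries.

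Hedgehog targets are also transcribed in the stroma. Of 7 fibroblast genes, 5 rose (Pdgfra, Pdgfrb, Dcn, Lum and Thy1), with a list median of 0.73, while the collagen genes Col1a1 (-0.48, 95% interval -1.08 to 0.12) and Col3a1 (0.019, -0.43 to 0.47) did not pass; Pdgfra went from 6.97 ± 0.721 TPM (SD, n = 4) to 13.2 ± 2.36 TPM (SD, n = 3). Their summed level overlapped, at 935 to 1444 TPM in controls and 1232 to 1975 TPM after UVB. Dermal papilla genes summed to 57.9 to 86.9 TPM in controls and 50.6 to 62.6 TPM after UVB; Corin, Sox2, Rspo3 and Bmp3 were under 1 TPM in every library, and Prom1 was the 1 gene called of 6, lower. Prom1 went from 57.7 ± 10.5 TPM (SD, n = 4) to 37.4 ± 6.0 TPM (SD, n = 3) and made up most of that sum, while 4 of the 6 had values above 0 and the list median was 0.066. Of the other lists, endothelium had 3 of 6 called higher, macrophages 3 of 8 higher, T cells 2 of 5 higher, melanocytes 3 of 5 lower, skeletal muscle 1 of 7 lower, meibocytes 2 of 10 lower (Awat2 and Plin2) and epidermis 2 of 8 lower (Krt77 and Lce1m), where 6.74% of all genes were called lower and 6.30% higher. Not every gene moved with those called. Of the meibocyte genes 4 had values above 0 and 6 below (median -0.086), with Elovl3 (0.54), Fasn (0.32) and Pparg (0.22) above but not called. Of the epidermis genes 4 had values above 0 and 4 below (median -0.089). Of the T cell genes 2 had values above 0 and 3 below (median -0.27). Summed T cell levels overlapped, at 6.04 to 8.07 TPM in controls and 5.93 to 11.97 TPM after UVB. The part of these cell types in the differences of the 10 genes was not tested.

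The genes most like a member over the 7 libraries were found by Pearson correlation of log2 CPM among 11965 other genes with a mean count of at least 50, as a description. For Lrig1 these were Zfp39 (r = 0.993), Heatr6 (0.990) and Atg10 (0.989), and 99 genes reached 0.95. For Sox9 they were Bclaf3 (0.986), Prss53 (0.985) and Slc1a4 (0.985), with 30 genes at 0.95 or more. For Gli1 they were Zfr (0.977), Cdyl2 (0.95) and Nabp1 (0.946), with 2 genes at 0.95 or more. These 9 genes were picked for likeness over these libraries, so their lowest library largely follows from the choice. It was UVB b in 8 of them and UVB a for Bclaf3. Of the pairs of members, Sox9 and Gli2 had the highest value (r = 0.979), while Ptch1 and Hhip had 0.879, Ptch1 and Gli1 0.645, and Gli1 and Gli2 0.423. All points share the same 7 libraries and the contrast between groups, so these values describe likeness in these libraries.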

How the data were processed

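The authors deposited an estimated count per gene (an expected count, not normalised; 12.5% of the values were not whole). The authors also deposited TPM values, which are scaled for transcript length and library size. Per the submitters' processing notes, FastQC, Trimmomatic, DRAGEN and Picard were used with the build rn7; their roles and versions, the annotation and strand are not given in the sources used here. Unquoted commas shifted cells, so each row's last 7 fields were taken; 5 rows lacked a value, leaving 17246 genes. Headers could be matched to the labels only by group. Each also holds WT, MG and a number of its own that occurs in no label. The library letters are arbitrary and pair nothing. No 2 libraries of a group agreed within sampling noise (chi-square over degrees of freedom of 10.9 or more).

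Rounded counts of all 7 libraries were tested in edgeR 4.0.16 (R 4.3.3; TMM, filterByExpr, robust quasi-likelihood) with Benjamini-Hochberg adjustment over 13709 genes; the planned test assumed whole counts. SE is the size of the log2 fold change divided by the root of F, and intervals are unadjusted. Alternatives were DESeq2 1.42.0, limma-voom 3.58.1 (also with quality weights), 2 other scalings, 2 other filters, limma on log2(TPM + 1) or log2(TPM + 0.1), and 7 fits that each left out 1 library. Tested on simulated data, edgeR recovered 80.3% of 198 genes changed 2-fold among 13709. False calls made up 6.47% of edgeR's calls and 8.57% of limma-voom's (8.62% with quality weights). They made up 19.6% of DESeq2's calls and 19.8% of those of limma on log2(TPM + 1). Smaller changes were not simulated. Few counts limit precision most for Hhip and Shh.

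Members and lists were chosen with earlier results of these data known. Named genes are the 10 members, every called gene and the 3 most abundant uncalled genes of each pathway or progenitor list, and the 3 genes most like Gli1, Lrig1 and Sox9; others were picked after their values were seen. Of 193 listed symbols, 20 were not analysed here. A few genes counted in the lists are not reported here by name. Overlaps and promoters come from RefSeq GRCr8, a different build, and all 10 members matched by gene ID.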

Additional observations from a re-analysis of the deposited data

Results flagged for a closer look

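Spread within the 4 controls was examined for 22 genes, and in 2 of them control d stood apart; about 1.1 such genes arise by chance, at 1 in 20. Lgr5 was at 5.86 CPM in control d, while controls a to c had 4.71 to 4.90 CPM, so that the gap took 0.838 of the whole spread. Itga6 was at 211.5 CPM in control d, while controls a to c had 194.6 to 197.3 CPM, with the same share of 0.838. The group of 3 UVB libraries is too small for such a comparison.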

How the results depend on the processing

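No paired analysis was possible because the numbers in the column headers occur in none of the labels. Lrig1, Ptch1 and Lef1 were called in all 17 alternative fits; Prdm1 was called in 6, Sox9 in 2, and the other members in none of theirs. The log2 fold change of Smo ran from -0.023 (without control a) to 0.077 (without control d) when 1 library was left out. The count of members called stayed between 2 and 4 in every fit. The other hedgehog genes called numbered 2 in place of 4 on log2(TPM + 1) and 2 on log2(TPM + 0.1), both with the filter, which left 19 of 25 to test. Hedgehog targets called numbered 2 in place of 1 by DESeq2 (Ccnd1 and Mycn) and 0 in each of the 3 TPM fits. Other progenitor and duct markers called numbered 7 in place of 4 by DESeq2 and 2 on log2(TPM + 1) without a filter; the cause was not tested. Across the 7 fits without 1 library the counts were 851 to 1898 for all genes (1787 with every library; leaving out control b, c or d gave 1097, 851 and 943, and leaving out UVB b or c gave 1047 and 1168), 2 to 4 for members, 0 to 4 for other hedgehog genes (2 without UVB c), 0 to 1 for hedgehog targets (0 without control c, control d, UVB a or UVB c), 1 to 5 for other progenitor and duct markers (1 without control c or d, 2 without UVB a, b or c), and 1 to 3 for R-spondin, LGR and LRIG genes (1, Lef1, without control c, control d, UVB a or UVB c). The 1 hedgehog target called without control b was Mycn, lower, and not Ccnd1. Under other tools, scalings and filters 1220 to 2451 genes were called.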
